A study of Mus musculus with 8 samples.

Results

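Cyclins, cyclin-dependent kinases (CDKs) and CDK inhibitors were examined in the left ventricle of mice infused with angiotensin II (ANG II), a peptide hormone that raises blood pressure, and of control mice. Members were chosen by gene name alone, as names that begin with Ccn, Cdk or Cdkn and go on with the letter and number of a family member, which gave 50 of the 55679 genes in the table. Of these, 22 act in the cell cycle, 14 act with RNA polymerase II in transcription, and 14 are other cyclins and CDKs. Left ventricles of male wild-type C57BL/6J mice were compared after 7 days of saline (control) or of ANG II at 1500 ng/kg/min, both given by osmotic pumps under the skin. There were 4 libraries in each group, numbered 1 to 4 in the labels. The study calls its samples biological replicates and describes more of them in each group than the libraries analysed here. All hearts were flushed with saline to remove blood, and libraries were made from messenger RNA captured on oligo(dT) beads. The labels give no age, and the part of their text on RNA extraction names CRC cells where the tissue label reads left ventricle.

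A CDK is active only when bound to a cyclin, and the CDK inhibitors block this complex. D-type cyclins with Cdk4 or Cdk6 phosphorylate the retinoblastoma protein and so release the E2F transcription factors, E- and A-type cyclins with Cdk2 drive DNA replication, and A- and B-type cyclins with Cdk1 drive mitosis. Adult cardiomyocytes divide rarely, whereas fibroblasts, endothelial cells and immune cells of the heart can divide. Another branch of the family phosphorylates RNA polymerase II, among them Cdk9, Cdk12 and Cdk7, the last of which also activates the CDKs of the cell cycle.

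Promoters of mitotic genes often carry a cell cycle homology region (CHR), which is bound by the DREAM and MuvB complexes, together with CCAAT boxes bound by NF-Y, and promoters of replication genes often carry E2F sites. Promoter windows of 300 bases (250 before and 50 after the start, RefSeq, GRCm38.p6) were found for 40 of the 50 members. No window was matched for Ccnd1, Ccnd2, Ccna2, Ccne2, Cdkn1c, Ccnh, Cdk19, Ccny, Cdk17 and Cdk5. The 4 windows below belong to the mitotic members tested, which include the kinase Cdk1 and both B-type cyclins measured above 0. They lie at chr10:69352863-69353162 (Cdk1), chr13:100786437-100786736 (Ccnb1), chr9:70421505-70421804 (Ccnb2) and chr17:24251360-24251659 (Ccnf), all on the minus strand. Capitals mark matches on either strand. The CHR was searched as TTTGAA and as the variant TTCGAA, the NF-Y box as its core letters CCAAT, and the E2F site as TTTCCCGC with the variants TTTGGCGC, TTTCGCGC and TTTGCCGC.
Cdk1: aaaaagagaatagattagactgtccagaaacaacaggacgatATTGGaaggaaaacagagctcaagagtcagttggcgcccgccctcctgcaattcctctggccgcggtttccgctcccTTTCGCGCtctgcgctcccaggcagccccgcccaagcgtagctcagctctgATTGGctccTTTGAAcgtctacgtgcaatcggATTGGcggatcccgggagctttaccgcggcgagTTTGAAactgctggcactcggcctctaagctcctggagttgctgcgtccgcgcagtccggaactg
Ccnb1: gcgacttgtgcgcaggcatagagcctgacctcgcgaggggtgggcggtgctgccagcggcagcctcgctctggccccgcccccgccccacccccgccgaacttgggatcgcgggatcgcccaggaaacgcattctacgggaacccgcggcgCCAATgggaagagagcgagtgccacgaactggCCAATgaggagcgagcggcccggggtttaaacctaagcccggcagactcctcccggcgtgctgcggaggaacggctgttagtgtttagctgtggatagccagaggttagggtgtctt
Ccnb2: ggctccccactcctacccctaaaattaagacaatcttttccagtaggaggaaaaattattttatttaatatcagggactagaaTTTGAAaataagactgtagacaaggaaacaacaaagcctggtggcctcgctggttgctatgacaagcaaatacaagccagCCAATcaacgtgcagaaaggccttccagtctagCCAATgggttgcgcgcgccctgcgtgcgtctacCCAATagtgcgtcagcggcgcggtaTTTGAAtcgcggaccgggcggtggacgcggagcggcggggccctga
Ccnf: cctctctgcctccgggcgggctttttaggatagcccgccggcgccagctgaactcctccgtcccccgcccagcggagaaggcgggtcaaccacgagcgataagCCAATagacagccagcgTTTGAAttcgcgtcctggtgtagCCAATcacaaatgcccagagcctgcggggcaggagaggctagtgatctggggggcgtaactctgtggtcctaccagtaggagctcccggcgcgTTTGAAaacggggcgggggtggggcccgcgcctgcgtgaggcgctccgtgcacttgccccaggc
These words were chosen with the members' values known, and no marked word overlapped another. The Cdk1 window held 2 CHR words, 3 CCAAT boxes and 1 E2F word. The Ccnb2 and Ccnf windows each held 2 CHR words, with 3 and 2 CCAAT boxes. The Ccnb1 window held 2 CCAAT boxes and neither CHR word searched (TTTGAA or TTCGAA). Other forms of the CHR were not searched, so a CHR in the Ccnb1 window is not excluded. A CHR word stood in 19.2% of 32851 promoter windows of this length, a CCAAT box in 37.4%, an E2F word in 2.27%, and a CHR word together with a CCAAT box in 7.53%. Some members had 2 windows, and the 17 cell-cycle members had 21, of which 4 held a CHR word (19%, in Ccnb2, Ccnf, Cdk1 and Cdkn2b), 11 a CCAAT box (52.4%) and 3 an E2F word (14.3%, in Cdk1, Cdk2 and Cdkn2a). Of the 12 transcriptional members with a window (1 each), 5 held a CCAAT box, and 0 held a CHR or an E2F word. A match is a description of the letters and not evidence of binding.

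Expression was given as FPKM, a fragment count scaled by transcript length and by library size, so that levels can be compared between genes. The libraries held 14455715 to 16564950 fragments. Of the 50 members, 47 had a mean of at least 0.1 FPKM and were tested with limma on log2(FPKM + 1), within the fit of all 19364 genes that passed this filter. Of the 47, Cdk15 alone passed with a control mean under 0.1 FPKM (0.0444), and Ccna1, Ccnb3 and Ccno were not tested. A gene was called when its Benjamini-Hochberg adjusted p was under 0.05 and its log2 fold change was above 0.5 in size. On this scale the fold changes of weakly expressed genes come out too small, so that with a pseudocount of 0.1 Ccnb2 had 1.95 in place of 1.27, Ccnf 1.73 in place of 1.00 and Ccne1 1.60 in place of 0.87. Over all genes tested, 15.4% were called, 14% higher and 1.41% lower in ANG II, and the median log2 fold change was 0.15. Under median-of-ratios scaling this median was 0.0040 and the share of calls that were higher was 67.5% instead of 90.8%. Relative to the median as deposited, each log2 fold change below is smaller by 0.15. Mitochondrially encoded genes took 26.3 to 26.95% of fragments in control and 19.2 to 21.8% in ANG II.

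Marker genes of the cell types in the tissue also differed between the groups. Beside the counts below, 15.4% of all genes tested were called. This share was 12.8% under median-of-ratios scaling, 12.4% under quantile normalization and 14.3% without mitochondrially encoded genes. Macrophage markers were called higher in 9 of 9 genes, with a summed level of 181.4 to 220 FPKM in control and 440 to 593.4 in ANG II, and fibroblast markers in 7 of 8, with 1083 to 1459 FPKM against 2285 to 2589. The rise of the fibroblast sum was carried by the collagens Col1a1 and Col1a2. The other 6 markers, a split chosen after the values were seen, summed to 984.4 to 1291 FPKM in control and 1046 to 1430 in ANG II. Among them Gsn, the most abundant, had a lower mean in ANG II (818.8 and 587 FPKM, log2 fold change -0.50, adjusted p = 0.028 by limma) and was not called. Every fibroblast marker but Gsn was called higher, so the sum without the collagens also holds markers that rose. Cardiomyocyte markers, all 8 of them detected, summed to 47370 to 48300 FPKM in control and 35510 to 38200 in ANG II, and 2 of 8 were called lower, with 5 called under median-of-ratios scaling, 1 under quantile normalization, 4 without mitochondrially encoded genes and 4 without ANG II 3. Neutrophil markers summed to 2.58 to 6.79 FPKM in control and 8.72 to 21.97 in ANG II (4 of 5 tested called higher, with the defining gene Ly6g listed at 0 in most libraries), T cell markers to 2.77 to 10.9 against 9.69 to 16.95 (4 of 8 higher, 7 without control 1 and 2 under quantile normalization), and B cell markers to 0.873 to 2.24 against 1.66 to 2.94 (0 of 5 called). Endothelial markers summed to 448.1 to 482.9 against 496 to 567.6 (2 of 7 higher, 1 without ANG II 1, 2 or 3, and 0 under either rescaling or without mitochondrially encoded genes), smooth muscle and pericyte markers to 465.4 to 540.1 against 527.9 to 592.6 (2 of 7 higher, 1 under either rescaling), and adipocyte markers to 145.2 to 195.3 against 194.8 to 257.8 (0 of 4 called, 1 without control 2). Red cell genes summed to 96.8 to 486.7 FPKM against 580.7 to 2083 (5 of 5 higher), and atrial markers to 1.16 to 48.8 against 52.5 to 230.5 (1 of 3 tested higher, between 0 and 3 across the alternatives and 0 without control 3, control 4, ANG II 1 or ANG II 3, 2 without control 1 or control 2, with Bmp10 listed at 0 in all controls). In bulk tissue, more cells of a type and more RNA per cell cannot be told apart, and the part of these shifts in the results below was not tested.

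Of the 47 members tested, 16 were called, 15 of them higher and 1 lower, which is 34% against 15.4% of all genes. Calls fell mostly on the cell cycle: 13 of 20 cell-cycle members tested, 2 of 14 transcriptional members and 1 of 13 other members. Median log2 fold changes were 0.57 for the cell-cycle members, 0.26 for the transcriptional members and 0.16 for the others, beside 0.15 for all genes. Without the threshold on fold change, 28 members had an adjusted p under 0.05, against 33.3% of all genes, and the 12 added members all had log2 fold changes under 0.5. With this threshold alone 21 members passed under median-of-ratios scaling (16 higher and 5 lower, 27.7% of all genes passing) and 22 under quantile normalization (15 higher and 7 lower, 27.9% of all genes). The ANG II and control libraries did not overlap for 26 of the 47 members, 25 of them higher in ANG II, while 33.7% of all genes tested did not overlap. With median-of-ratios scaling 10 members were called of 47, where 12.8% of all genes were, and with quantile normalization 9, where 12.4% were, and among the members lost in both were the 2 transcriptional kinases, which left 0 of 14 transcriptional members called.

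**Figure D1:**
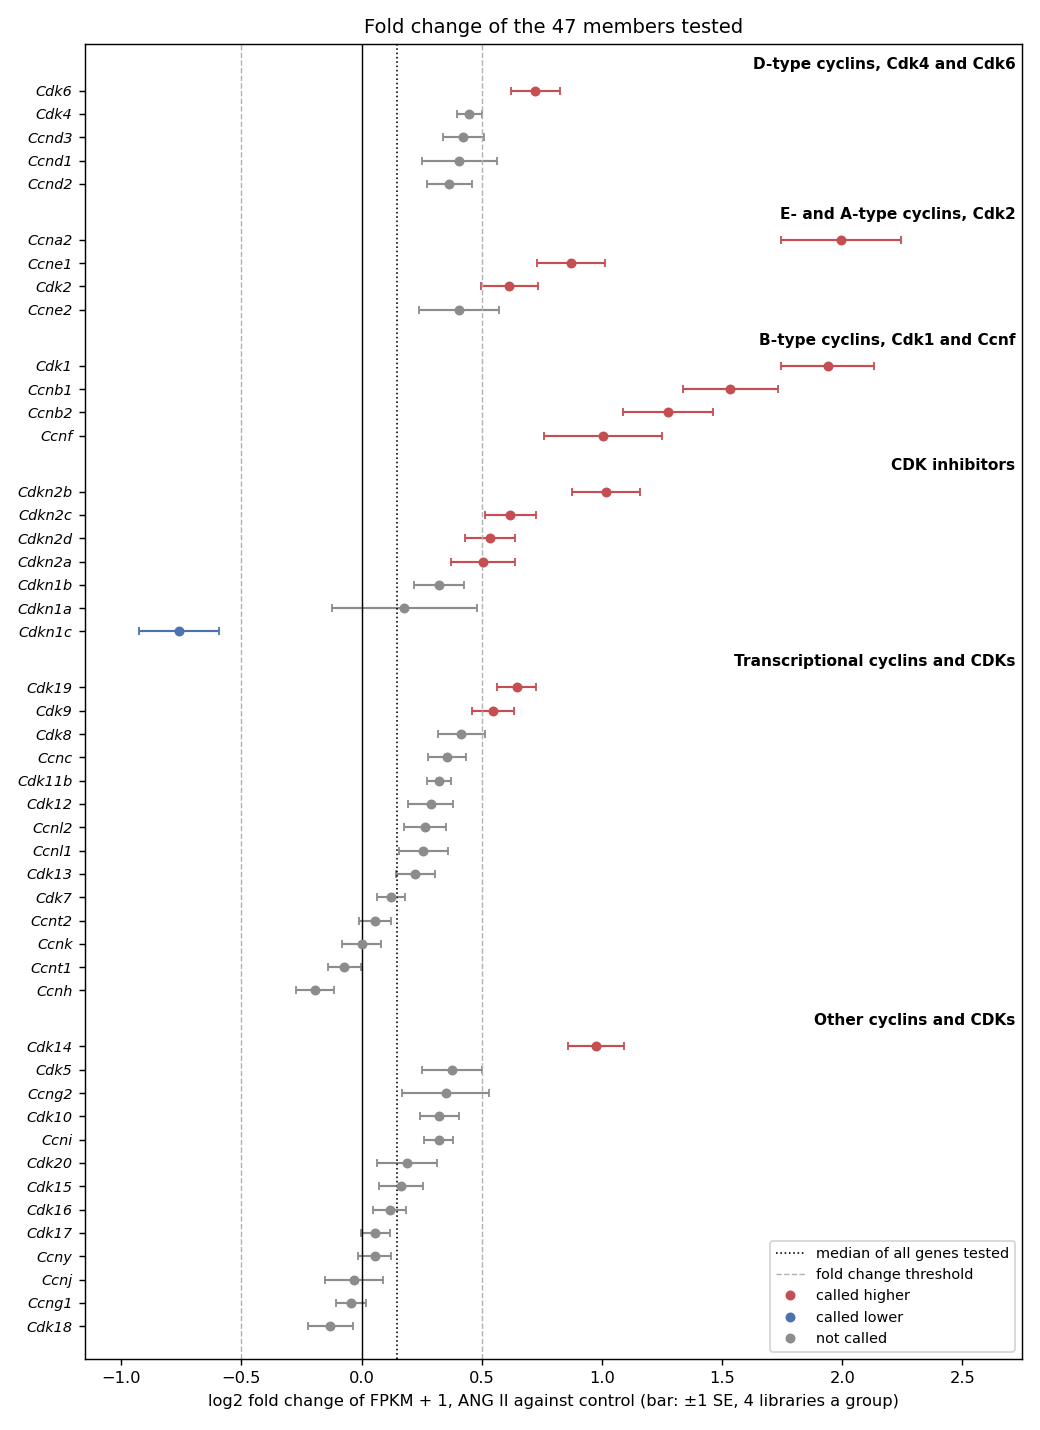
Log2 fold change of FPKM + 1 (ANG II against control) of the 47 members tested, grouped by role, with bars of 1 standard error and 4 libraries in each group. Dashed lines mark the fold change threshold of 0.5 and the dotted line the median of all genes tested (0.15). The mitotic members and Ccna2 lie at 1.00 to 2.00, Cdkn1c at -0.76 is alone below the lower threshold, and most transcriptional members lie between 0 and 0.5.

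The mitotic group had a median log2 fold change of 1.41, the highest of the 4 cell-cycle groups. All 4 of its tested members were called higher, where 15.4% of all genes were called and 14% called higher. Cdk1, the kinase that drives entry into mitosis (chr10:69335146-69352938), was at 1.07, 0.896, 0.79 and 0.855 FPKM in control libraries 1 to 4 and at 8.68, 7.43, 6.22 and 3.79 in ANG II libraries 1 to 4. Every ANG II library was above every control library, with ANG II 1 the highest and ANG II 4 the lowest of its group. The mean rose from 0.904 ± 0.122 to 6.53 ± 2.09 FPKM (n = 4 each, SD), a log2 fold change of 1.94 ± 0.20 (SE; adjusted p = 8.9e-05 by limma).

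Ccnb1 encodes cyclin B1, the main partner of Cdk1 in mitosis (chr13:100778650-100786570). It was at 1.1, 0.816, 0.84 and 0.693 FPKM in control and at 6.6, 4.65, 4.34 and 2.65 in ANG II, a log2 fold change of 1.53 ± 0.20 (SE; adjusted p = 0.00034 by limma). The groups did not overlap, and the order of the ANG II libraries was that seen for Cdk1. Of its 50-base words, 23.4% also occur in the pseudogene Ccnb1-ps, whose own level was at most 0.103 FPKM in any library. Ccnb2, the second mitotic B-type cyclin (chr9:70407692-70421547), was at 0.633, 0.805, 1.07 and 0.64 FPKM in control and 4.31, 2.95, 4.36 and 2.04 in ANG II, a log2 fold change of 1.27 ± 0.19 (SE; adjusted p = 0.00070 by limma). Here ANG II 3 and ANG II 1 were close to each other at the top, and ANG II 4 was again the lowest.

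Ccnf, or cyclin F, binds no CDK and serves as the substrate receptor of a ubiquitin ligase that acts late in the cycle (chr17:24222198-24251484). Its level was 0.523, 0.621, 0.639 and 0.395 FPKM in control and 4.04, 2.13, 2.05 and 0.899 in ANG II, which rested on 8 to 14 and on 19 to 81 fragments. ANG II 1 was the highest and ANG II 4 the lowest treated library, and the latter still lay above all controls. The log2 fold change was 1.00 ± 0.25 (SE; adjusted p = 0.011 by limma), and without ANG II 1 it was 0.77 (adjusted p = 0.017). Ccnb3, a cyclin best known from meiosis, was listed at 0 in all 8 libraries, where a floor of 3 fragments corresponds to 0.0401 to 0.046 FPKM.

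Among the cyclins of DNA replication, Ccna2 and Ccne1 rose and Ccne2 was not called. Ccna2 encodes cyclin A2, which serves with Cdk2 in replication and with Cdk1 before mitosis (chr3:36564865-36572150). Its level was 1.67, 0.685, 0.746 and 0.462 FPKM in control libraries and 9.2, 6.9, 6.7 and 3.68 in ANG II libraries. Control 1 stood above the other controls and still lay below ANG II 4, the lowest of the treated libraries. The mean was 7.43 times that of control and the log2 fold change 2.00 ± 0.25 (SE; adjusted p = 0.00029 by limma), the largest of all members tested. On the opposite strand, Exosc9 covers 12.5% of its exons, and Exosc9 itself was at 9.24 to 11.2 FPKM in control and 11.2 to 12.1 in ANG II and was not called (log2 fold change 0.18). The study picked Ccna2 and Ccnb1 among its candidate genes from data of this comparison, so their direction is not independent of that choice.

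Ccne1, cyclin E1, activates Cdk2 at the start of replication (chr7:38097984-38107534). It was at 0.635, 0.315, 0.901 and 0.45 FPKM in control and at 1.67, 2.09, 2.2 and 1.51 in ANG II, from 4 to 13 and from 21 to 29 fragments. The groups did not overlap, and the log2 fold change was 0.87 ± 0.14 (SE; adjusted p = 0.0012 by limma). Its relative Ccne2 was at 1.84, 1.47, 2.24 and 2.29 FPKM in control and 3.52, 3.1, 3.4 and 1.83 in ANG II (log2 fold change 0.41 ± 0.17, SE; adjusted p = 0.092 by limma). ANG II 4 lay inside the range of the controls, and without it Ccne2 was called (log2 fold change 0.56, adjusted p = 0.014). On the opposite strand, Ints8 covers 17.4% of its exons and was not called (log2 fold change 0.15).

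Cdk2, the kinase partner of the E- and A-type cyclins (chr10:128697939-128705031), was at 5.05, 5.94, 4.25 and 3.85 FPKM in control and 7.74, 8.55, 7.67 and 7.12 in ANG II. The groups did not overlap (log2 fold change 0.61 ± 0.12, SE; adjusted p = 0.0033 by limma), but Cdk2 was not called under median-of-ratios scaling (0.42, adjusted p = 0.022) or quantile normalization (0.32, adjusted p = 0.063). Ccna1, the germline form of cyclin A, was listed at 0 in all 4 controls and rested on 1, 3, 3 and 4 fragments in ANG II, near the floor of 3 fragments, and it was below the level tested.

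**Figure D2:**
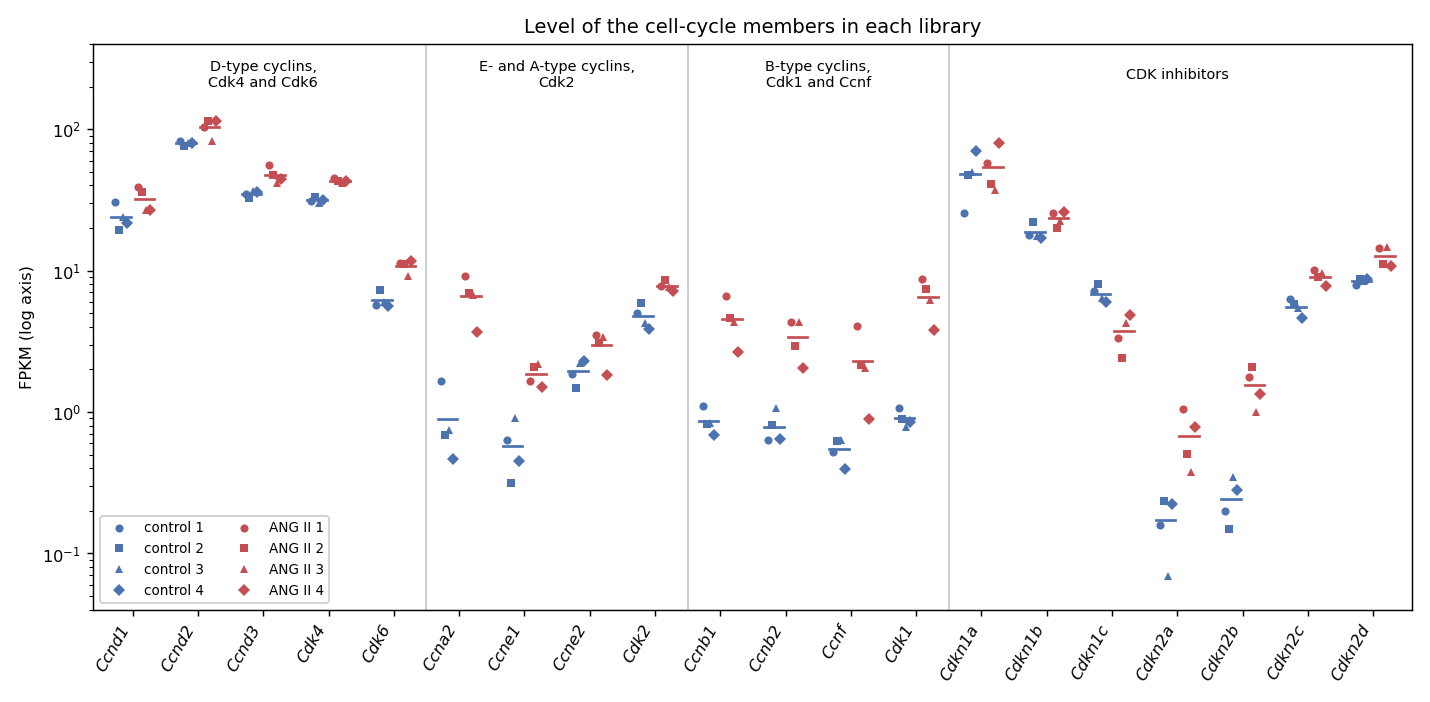
FPKM (log axis) of the 20 cell-cycle members tested in each of the 8 libraries, with control in blue, ANG II in red and short lines at the group means. The groups are separate for Cdk1, Ccna2 and the B-type cyclins, where ANG II 4 (red diamonds) is the lowest treated library, and they overlap for Cdkn1a, whose controls run from 25.6 to 70.1 FPKM.

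The D-type cyclins, which include Ccnd2, the most abundant cell-cycle member, and their kinases had smaller fold changes. Their summed level as deposited was 168.6 to 183.8 FPKM in control and 202 to 253.5 in ANG II. Of the 5 members, 1 was called, Cdk6 (20%, near the 15.4% of all genes). Cdk6 phosphorylates the retinoblastoma protein early in the cycle (chr5:3341485-3531008) and was at 5.74, 7.23, 5.97 and 5.64 FPKM in control and 11.25, 11.1, 9.13 and 11.65 in ANG II. The groups were well apart, with a log2 fold change of 0.72 ± 0.10 (SE; adjusted p = 0.00054 by limma), which was 0.45 and not called under quantile normalization.

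Cdk4, which shares this role (chr10:127063534-127067920), was at 30.9, 33.1, 29.9 and 31.4 FPKM in control and at 44.8, 42.8, 41.8 and 42.9 in ANG II. Both groups were tight and did not overlap, with a log2 fold change of 0.45 ± 0.05 (SE; adjusted p = 0.00015 by limma) that lies under the threshold of 0.5. Under median-of-ratios scaling Cdk4 had 0.23 (adjusted p = 0.0072 by limma) and after quantile normalization 0.26 (0.0031). Tspan31, on the opposite strand, covers 19.7% of its exons and had a log2 fold change of 0.33 (adjusted p = 0.0025), and the use of strand in counting is not given in the sources used here.

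Ccnd2, the most abundant D-type cyclin here (chr6:127125162-127152193), was at 81.9, 76.1, 80.3 and 79.97 FPKM in control and 102.8, 114.2, 82.7 and 114.8 in ANG II (log2 fold change 0.37 ± 0.10, SE; adjusted p = 0.015 by limma). ANG II 3 was barely above the highest control. Ccnd3 (chr17:47505051-47599691) was at 34.85, 32.65, 36.7 and 35.8 FPKM in control and 55.97, 47.7, 41.7 and 44.6 in ANG II (0.42 ± 0.09, SE; adjusted p = 0.0042 by limma), without overlap. Both lay under the fold change threshold. Under median-of-ratios scaling Ccnd2 had 0.14 (adjusted p = 0.33 by limma) and Ccnd3 0.20 (0.13). After quantile normalization Ccnd2 had 0.20 (adjusted p = 0.16 by limma) and Ccnd3 0.25 (0.053). Ccnd1, the D-type cyclin most often amplified in tumours (chr7:144929931-144939925), was at 30.4, 19.5, 24.1 and 21.7 FPKM in control and 38.7, 35.9, 26.7 and 26.96 in ANG II (0.41 ± 0.15, SE; adjusted p = 0.069 by limma). Control 1 lay above ANG II 3 and ANG II 4, and without it Ccnd1 was called (log2 fold change 0.53, adjusted p = 0.026). LTO1 covers 23.4% of its exons on the opposite strand.

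The balance within the D-type family did not differ detectably. Ccnd2 made up 57.5 ± 1.6% of the summed D-type cyclin level in control and 56.5 ± 4.09% in ANG II (n = 4 each, SD; two-sided exact permutation p = 0.657). Ccnd1 made up 17.2 ± 2.46% and 17.5 ± 2.17% (exact permutation p = 0.886), and Ccnd3 25.3 ± 1.11% and 26 ± 2.29% (exact permutation p = 0.514). Between the kinases, Cdk4 held 82.05 to 84.8% of the summed Cdk4 and Cdk6 level in control and 78.65 to 82.06% in ANG II, a difference of -3.62 percentage points (exact permutation p = 0.0571). This was 1 of 11 such shares, and adjusted over them p was 0.21. The smallest p that 4 against 4 libraries allow is 0.0286.

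CDK inhibitors of the Ink4 family, which bind Cdk4 and Cdk6, were called higher in 4 of 4 members, against 15.4% of all genes. This count was 1 (Cdkn2b) under median-of-ratios scaling or quantile normalization and 2 (Cdkn2b and Cdkn2c) without ANG II 1. Of the Cip/Kip family, which binds CDK complexes more widely, 1 of 3 was called, and it was lower. Cdkn2b, an Ink4 inhibitor known as a target of TGF-beta signalling (chr4:89306299-89311039), was at 0.199, 0.148, 0.347 and 0.282 FPKM in control and 1.76, 2.08, 0.999 and 1.35 in ANG II. These levels rested on 3 to 8 fragments in control and 21 to 46 in ANG II, and the groups did not overlap. The log2 fold change was 1.02 ± 0.14 (SE; adjusted p = 0.00053 by limma), which was 2.25 with a pseudocount of 0.1 and 2.55 by voom on recovered fragments. Its neighbour Cdkn2a, 11.6 kb away on the same strand (chr4:89274471-89294653), encodes an Ink4 protein and, in another reading frame, an activator of p53, and the gene-level values do not separate these products.

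Cdkn2a was at 0.158, 0.235, 0.0691 and 0.224 FPKM in control and 1.06, 0.502, 0.378 and 0.788 in ANG II, from 1 to 3 and from 5 to 14 fragments. The groups did not overlap, but the call sat at the threshold (log2 fold change 0.51 ± 0.13, SE; adjusted p = 0.016 by limma). It was not made with median-of-ratios scaling (0.44), after quantile normalization (0.38), or without control 3 (0.46), ANG II 1 (0.40) or ANG II 4 (0.47). At levels this low the value depends on the pseudocount, and it was called at 1.49 with a pseudocount of 0.1 and at 1.79 by voom on recovered fragments.

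Cdkn2c, a further Ink4 inhibitor (chr4:109660876-109667189), was at 6.34, 5.82, 5.43 and 4.64 FPKM in control and 10.1, 8.94, 9.54 and 7.73 in ANG II. Its log2 fold change was 0.62 ± 0.11 (SE; adjusted p = 0.0018 by limma), or 0.42 with median-of-ratios scaling and 0.33 after quantile normalization, neither called. Cdkn2d, the last of the family (chr9:21288410-21291407), was at 7.92, 8.7, 8.42 and 8.65 FPKM in control and 14.5, 11.1, 14.6 and 10.8 in ANG II (0.53 ± 0.11, SE; adjusted p = 0.0037 by limma). ANG II 1 and 3 were higher than ANG II 2 and 4, and all lay above the controls. The call was lost without ANG II 1 (0.47), without ANG II 3 (0.47), without mitochondrially encoded genes (0.43), with median-of-ratios scaling (0.33) and after quantile normalization (0.28).

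Cdkn1c was the only member called lower among the 47 tested. It is an imprinted Cip/Kip inhibitor that holds cells out of the cycle during development (chr7:143458339-143461050). Its level was 7.17, 8.01, 6.36 and 5.95 FPKM in control and 3.36, 2.41, 4.25 and 4.86 in ANG II, so that every treated library was below every control. The mean fell from 6.87 ± 0.91 to 3.72 ± 1.07 FPKM (n = 4 each, SD; log2 fold change -0.76 ± 0.17, SE; adjusted p = 0.0062 by limma), and it stayed called in each of 16 alternative fits. An antisense gene, Gm44732, covers 30.7% of its exons and was listed at 0 in all 8 libraries.

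Cdkn1a, a p53 target and the most abundant CDK inhibitor here (chr17:29090976-29100727), varied widely within both groups. It ranged from 25.6 FPKM in control 1 to 70.1 in control 4, with 47.5 and 49.7 in controls 2 and 3, and was at 57.6, 41.1, 37.4 and 79.4 in ANG II. The groups overlapped throughout (log2 fold change 0.18 ± 0.30, SE; adjusted p = 0.69 by limma), and the direction turned under median-of-ratios scaling (-0.047). Cdkn1b, which restrains Cdk2 in resting cells (chr6:134920401-134925513), was at 17.7, 22.1, 17.5 and 17.01 FPKM in control and 25.7, 19.9, 22.3 and 26.0 in ANG II. Control 2 lay above ANG II 2, and the log2 fold change of 0.32 ± 0.11 (SE; adjusted p = 0.041 by limma) was under the threshold. Under median-of-ratios scaling Cdkn1b had 0.10 (adjusted p = 0.48 by limma) and after quantile normalization 0.093 (0.54).

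Within the Cip/Kip family, Cdkn1c made up 14.2, 10.3, 8.65 and 6.4% of the summed level in control and 3.87, 3.8, 6.65 and 4.41% in ANG II. The groups overlapped at control 4 and ANG II 3, and the difference of -5.21 percentage points had an exact permutation p of 0.0571 (0.21 adjusted over 11 shares). Cdkn1a held 63.7 ± 10.4% in control and 65.4 ± 5.56% in ANG II (n = 4 each, SD; exact permutation p = 0.8), and Cdkn1b 26.4 ± 7.13% and 29.9 ± 4.71% (exact permutation p = 0.457).

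**Figure D3:**
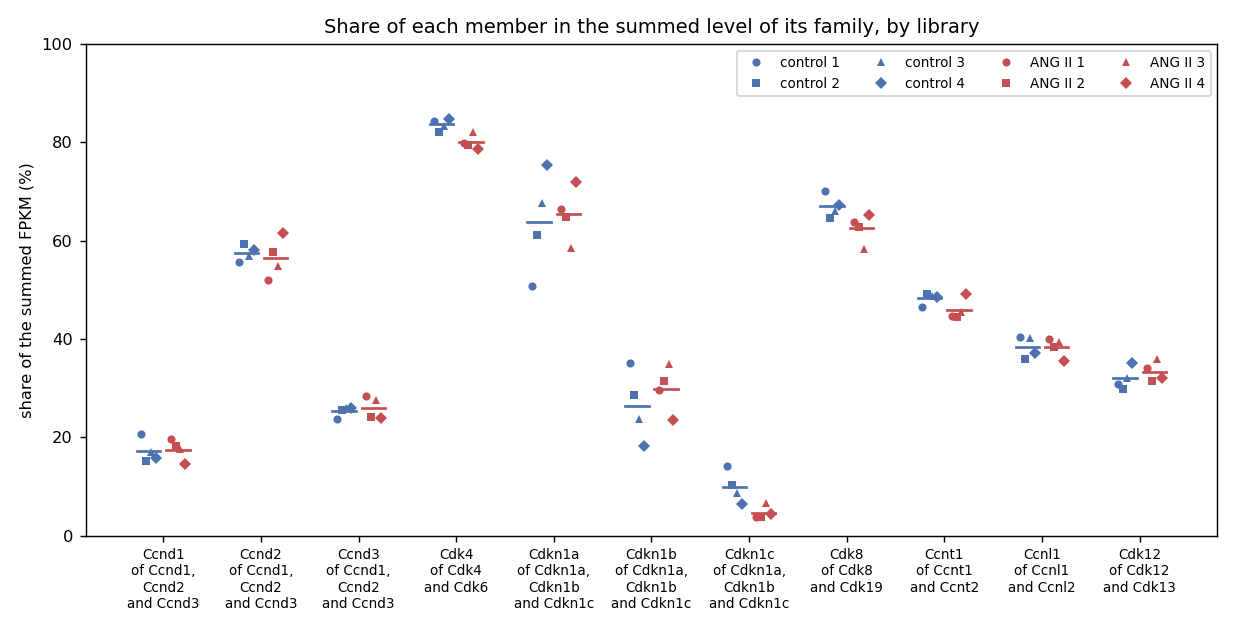
Share (%) of the summed FPKM of a family held by the named member, in each control (blue) and ANG II (red) library, with short lines at the group means. The groups overlap in all 11 shares, and the shares of Cdk4, Cdkn1c and Cdk8 have the smallest exact p (0.0571), with lower means in ANG II.

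Treated libraries were not alike in the extent of these differences. The summed level of Ccna2, Ccnb1, Ccnb2, Ccnf and Cdk1 was 3.04 to 4.999 FPKM in control and 32.8, 24.1, 23.7 and 13.1 FPKM in ANG II libraries 1 to 4, which is 8.23, 6.04, 5.94 and 3.28 times the control mean. ANG II 4 was the lowest treated library for 5 of these 5 genes and for 9 of the 12 cell-cycle members called higher. Macrophage markers in ANG II 4 summed to 2.68 times the control mean, within the range of the other treated libraries (2.28 to 3.07), as did fibroblast markers (1.87, within 1.71 to 1.93, or 1.16 within 0.867 to 1.18 without the collagens), smooth muscle and pericyte, neutrophil and B cell markers. ANG II 4 was also the lowest treated library for endothelial markers (1.08 times the control mean, against 1.14 to 1.23 in the others), cardiomyocyte markers (0.742 against 0.754 to 0.798), adipocyte markers (194.8 FPKM against 202.4 to 257.8), red cell genes (580.7 FPKM against 974.8 to 2083) and atrial markers (52.5 FPKM against 66.3 to 230.5), and the highest for T cell markers (16.95 FPKM). The part of these in the order of the libraries was not tested. Cdkn1c, which was called lower, was nearest to the control level in ANG II 4 as well (4.86 FPKM, with controls from 5.95). Cdkn1a, which was not called, was highest in ANG II 4 among the treated libraries.

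**Figure D4:**
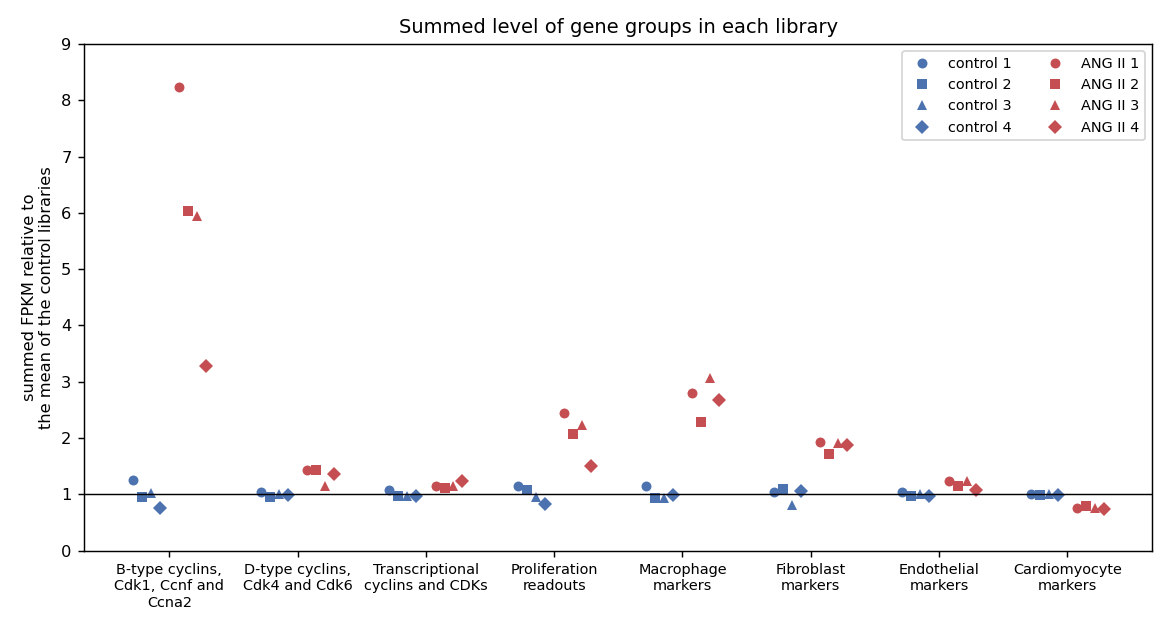
Summed FPKM of gene groups in each library, divided by the mean of the 4 control libraries (line at 1), with control in blue and ANG II in red. The mitotic cyclins with Cdk1 and Ccna2 spread from 3.28 to 8.23 in ANG II, macrophage markers from 2.28 to 3.07, fibroblast markers from 1.71 to 1.93, and cardiomyocyte markers from 0.742 to 0.798.

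Genes that act around the cell-cycle members were read from lists, and their calls were all higher in ANG II, where 90.8% of calls over all genes were higher too. Of 8 proliferation readouts, 7 were called higher and 0 lower (87.5% against 15.4% of all genes), with a median log2 fold change of 1.38. Top2a, which untangles replicated DNA, was at 2.12 to 5.10 FPKM in control and 10.2 to 26.4 in ANG II (log2 fold change 2.05 ± 0.28, SE; adjusted p = 0.00047 by limma). Mki67, the standard marker of cycling cells, was at 1.06 to 2.80 and 5.71 to 14.3 FPKM (1.88 ± 0.26), and the checkpoint kinase Bub1 at 0.332 to 1.12 and 2.33 to 4.37 (1.49 ± 0.20). Pcna, the replication clamp, was not called (0.42 ± 0.09, SE; adjusted p = 0.0056 by limma). ANG II 4 was the lowest treated library for 7 of the 8 readouts.

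Among 20 genes of the retinoblastoma, E2F and DREAM machinery, 8 were called higher and 0 lower (40% against 15.4% of all genes), or 4 under quantile normalization, where 12.4% of all genes were called, with a median log2 fold change of 0.33. Foxm1, a transcription factor for mitotic genes, was at 0.734 to 1.33 FPKM in control and 3.73 to 7.03 in ANG II (log2 fold change 1.61 ± 0.17), Mybl2, a MuvB partner in cycling cells, at 0.249 to 0.643 and 1.43 to 2.20 (1.00 ± 0.13), and the activator E2f2 at 0.101 to 0.281 and 0.872 to 1.72 (0.91 ± 0.13). Of 15 CDK phosphatases, kinases and small partners, 6 were called higher and 0 lower (40% against 15.4% of all genes). They included the CDK-binding proteins Cks2 (1.60 ± 0.18) and Cks1b (0.93 ± 0.14) and the phosphatase Cdc25b, which activates Cdk1 (1.21 ± 0.12; all SE).

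The machinery that degrades cyclins and CDK inhibitors had 3 of 24 genes called higher and 0 lower (12.5%, near the 15.4% of all genes) and a median log2 fold change of 0.24. These were the activator of the anaphase-promoting complex Cdc20 (1.77 ± 0.26), its ubiquitin-conjugating enzyme Ube2c (1.63 ± 0.23) and its inhibitor Fbxo5 (0.77 ± 0.20, SE; adjusted p = 0.017 by limma), the last of which lost its call without control 3 (0.71, adjusted p = 0.0503), without control 4 (0.67, adjusted p = 0.053) and under quantile normalization (0.4962, adjusted p = 0.080). Of 16 genes of p53 and its targets, 8 were called higher and 0 lower (50% against 15.4% of all genes). The p53 targets Cdkn1a and Ccng1 were counted as members and not in this list, and neither was called. Phlda3, which restrains Akt signalling, was at 9.70 to 14.7 FPKM in control and 26.3 to 36.5 in ANG II (log2 fold change 1.35 ± 0.14), and the pro-apoptotic genes Pmaip1 and Bbc3 had log2 fold changes of 0.83 ± 0.16 and 0.83 ± 0.12 (SE). Under median-of-ratios scaling or quantile normalization, 3 of the 16 were called, where 12.8% and 12.4% of all genes were.

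Of the transcriptional members, 2 of 14 were called (14.3%, near the 15.4% of all genes). Their summed level as deposited was 257.1 to 286.9 FPKM in control and 298.6 to 328.8 in ANG II. Median-of-ratios scaling divides each library by a size factor, which was higher in every ANG II library than in every control. Such scaling narrows the gap between these sums, and a difference of the rescaled sums was not tested. As deposited, ANG II 4, the lowest treated library for mitotic members, was the highest for 8 of these 14. Cdk9, the kinase of the elongation factor P-TEFb (chr2:32705784-32713076), was at 17.8, 18, 15.2 and 13.7 FPKM in control and 24, 22.9, 25.3 and 23.55 in ANG II. The groups did not overlap (log2 fold change 0.55 ± 0.09, SE; adjusted p = 0.0011 by limma), but the call was lost without control 4 (0.47), without mitochondrially encoded genes (0.43), with median-of-ratios scaling (0.33) and after quantile normalization (0.31). Its cyclins were not called: Ccnt1 had a log2 fold change of -0.07 ± 0.07 (SE; adjusted p = 0.47 by limma) and Ccnt2 of 0.06 ± 0.07 (SE; adjusted p = 0.57 by limma), with overlapping groups for both. Across the alternative fits, Ccnt1 ran from -0.31 to -0.026 (adjusted p of 0.0064 to 0.80 by limma). Ccnt2 ran from -0.17 to 0.095 (adjusted p of 0.076 to 0.88 by limma), and neither was called in any.

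Cdk19, a kinase of the Mediator complex (chr10:40339564-40483818), was at 5.71, 6.23, 5.84 and 6.22 FPKM in control and 8.71, 10.9, 10.3 and 10.0 in ANG II, without overlap (log2 fold change 0.64 ± 0.08, SE; adjusted p = 0.00032 by limma). The value was 0.44 with median-of-ratios scaling and 0.35 after quantile normalization, and neither was called. Its paralogue Cdk8 was at 11.3 to 13.4 FPKM in control and 14.3 to 18.8 in ANG II (0.41 ± 0.10, SE; adjusted p = 0.0094 by limma), and their common cyclin Ccnc at 6.802 to 8.37 and 9.79 to 10.54 (0.35 ± 0.08, SE; adjusted p = 0.0067 by limma), both under the threshold. Across the alternative fits, Cdk8 fell as low as 0.17 and Ccnc as low as 0.084. Their adjusted p by limma reached 0.22 and 0.48. Cdk8 made up 67 ± 2.33% of the summed Cdk8 and Cdk19 level in control and 62.5 ± 3.01% in ANG II (n = 4 each, SD; exact permutation p = 0.0571, 0.21 adjusted over 11 shares).

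The 12 transcriptional members not called had log2 fold changes of -0.19 to 0.41, and 5 of them had an adjusted p under 0.05. The highest levels belonged to Ccnl2, a cyclin tied to splicing, at 38.4 to 46.99 FPKM in control and 44.3 to 57.2 in ANG II (0.26 ± 0.09), and to its kinase Cdk11b at 38.0 to 40.97 and 46.8 to 52.0 (0.32 ± 0.05). Ccnh, which with Cdk7 forms the CDK-activating kinase, came next at 30.7 to 34.4 and 24.5 to 31.6 FPKM, the lowest log2 fold change of the class (-0.19 ± 0.08, SE; adjusted p = 0.084 by limma). Its value was -0.42 (adjusted p = 0.0034) under median-of-ratios scaling, -0.39 (0.0060) under quantile normalization and -0.32 (0.015) without mitochondrially encoded genes, still under the threshold of 0.5. Shares within paralogue pairs did not differ detectably, with an exact permutation p of 0.114 for Ccnt1 with Ccnt2, 0.971 for Ccnl1 with Ccnl2 and 0.371 for Cdk12 with Cdk13. Of 22 partners of these kinases tested, 3 were called higher and 0 lower (13.6%, near the 15.4% of all genes): the elongation factors Nelfe (0.63 ± 0.06) and Ell2 (0.54 ± 0.17) and the polymerase subunit Polr2a (0.55 ± 0.05; all SE), and all 3 calls were lost under median-of-ratios scaling or quantile normalization, the latter of which called another partner, the Mediator gene Med12l, lower (-0.55). Without mitochondrially encoded genes Nelfe kept its call, and Polr2a (0.43) and Ell2 (0.42) did not. Ell2 also fell below the threshold on fold change without control 2 (0.35) and ANG II 4 (0.49), and missed the threshold on adjusted p alone with no filter on low values, without control 1 and without ANG II 1, 2 or 3, where its fold change was 0.53 to 0.56.

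Cdk14, which pairs with cyclin Y at the cell membrane and acts in Wnt signalling, was the one other member called (chr5:4803391-5420312). Its level was 5.31, 6.1, 4.34 and 3.9 FPKM in control and 10.8, 9.86, 10.3 and 11.1 in ANG II, with the treated libraries close together and well above the controls. The mean was 2.14 times that of control (log2 fold change 0.97 ± 0.12, SE; adjusted p = 0.00023 by limma), and the call held in each of 16 alternative fits. Its cyclin Ccny was at 48.1 to 55.8 FPKM in control and 50.55 to 58.6 in ANG II (0.05 ± 0.07, SE; adjusted p = 0.58 by limma). Its relatives among the PFTAIRE and PCTAIRE kinases were not called either: Cdk16 at 98.7 to 111.5 FPKM in control and 104.8 to 129.6 in ANG II (0.12 ± 0.07), Cdk17 (0.06 ± 0.06), Cdk18 (-0.13 ± 0.09) and Cdk15, which was detected with at most 5 fragments.

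Ccng1 had the highest level of all 50 members. This cyclin, a p53 target without a known cell-cycle kinase, was at 577, 535.3, 602.8 and 584.9 FPKM in control and 548.6, 614.7, 540.5 and 526.2 in ANG II. The groups overlapped fully, with a log2 fold change of -0.05 ± 0.06 (SE; adjusted p = 0.62 by limma), or -0.27 (adjusted p = 0.021) under median-of-ratios scaling. Ccni followed at 124.1 to 137.7 FPKM in control and 150 to 174 in ANG II, without overlap but under the threshold (0.32 ± 0.06, SE; adjusted p = 0.0029 by limma). Under median-of-ratios scaling Ccni had 0.093 (adjusted p = 0.22 by limma) and after quantile normalization 0.13 (0.11). Of its 50-base words, 14.2% occur in the pseudogene Gm8983, which was at most 0.587 FPKM. The 12 other members not called had log2 fold changes of -0.13 to 0.38, and Ccno, a cyclin of multiciliated cells, was below the level tested with 0 to 3 fragments in each library.

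**Figure D5:**
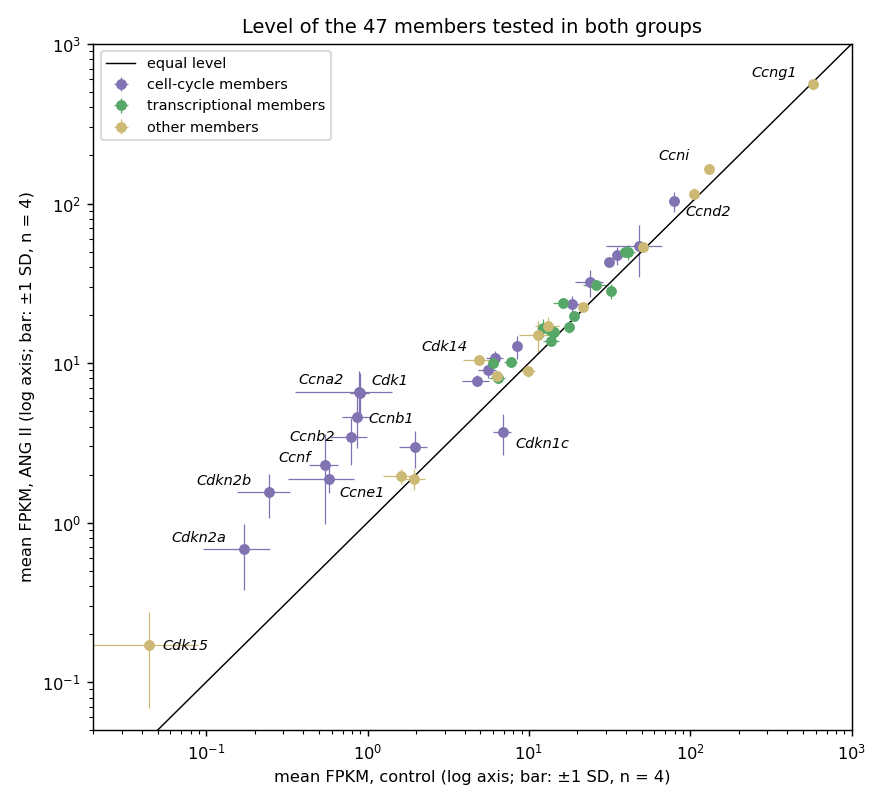
Mean FPKM in ANG II against mean FPKM in control (log axes) of the 47 members tested, with bars of 1 SD over 4 libraries, coloured by class, and the line of equal level. Ccng1, at 575 and 557.5 FPKM, lies on the line at the upper end, whereas Cdk1, Ccna2 and the B-type cyclins, all under 1 FPKM in control, lie well above it.

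Few members lie close to each other in the genome. Within 200 kb of each other lay 4 pairs of members on GRCm38. Cdkn2a and Cdkn2b were both called higher. Ccnb1 was called and Cdk7, 47.7 kb away, was not (0.12 ± 0.06), and neither member was called in the pairs Ccni with Ccng2 and Cdk11b with Ccnl2.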

How the data were processed

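RNA-seq libraries of 4 control and 4 ANG II left ventricles were grouped by their treatment labels. Values are FPKM, which the authors deposited in 1 table holding a column for each library, none of them pooled. The submitters' processing notes name HISAT, Bowtie2 and RSEM without versions, and the genome build, annotation and use of strand are not given in the sources used here. RSEM, where it was used, divides reads shared by similar genes. All 8 columns were used.

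Members and gene lists were chosen with earlier results of these data known. Positions came from GENCODE M21 (GRCm38), in which 50 of 50 members were found by gene ID, and promoters from RefSeq (GRCm38.p6). The study names limma with an adjusted p of 0.05 and a log fold change of 0.5 but no base, pseudocount or filter, and base 2, a pseudocount of 1 and a filter at a mean of 0.1 FPKM were choices of this work. limma 3.58.1 (R 4.3.3, eBayes with a trend) was fitted to log2(FPKM + 1) of 19364 genes with no covariate, two-sided p-values were adjusted over all of them (Benjamini-Hochberg), and the code was tested on simulated data. The labels do not tie libraries to animals, but the study calls its samples biological replicates, and describes more per group than the 4 analysed here. P-values measure the spread between these libraries. The 11 shares were compared by exact two-sided permutation tests over 70 allocations (scipy 1.17.1).

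Fragments behind each value were recovered from the steps of low FPKM values and GENCODE mean transcript lengths. Of values under 60 fragments, at least 99.2% in genes with 1 exon and 97.6% in others were whole within 0.05. Floors cover counting error only, and 3 fragments were taken as the limit of a 0. No 2 libraries agreed within sampling noise (chi-square per gene of at least 7.44).

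The text names every cell-cycle member, every called member of the other classes and the 3 most abundant of each, and, of each pathway list, the 3 called genes with the largest fold change. Ccno, Ccnt1, Ccnt2, Cdk8, Ccnc, Ccny, Cdk15, Cdk17, Cdk18, Cdk7, Ccng2, Cdk12, Cdk13, Ccnl1, Pcna, Med12l, Gsn, Col1a1 and Col1a2 are named beyond this rule as partners, paralogues or neighbours, for their level or for their part in a count or sum, after their values were seen. Alternatives changed the filter on low values (none, or 1 FPKM on average), the pseudocount (0.1), the scaling (median of ratios, quantile, mitochondrially encoded genes left out), the thresholds, the replicate block, the test (voom on recovered fragments), and left out each library in turn.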

Additional observations from a re-analysis of the deposited data

Results flagged for a closer look

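Among 80 groups of 4 libraries checked by Dixon's test (29 members and 11 shares in each group), 1 held a library that stood apart, where chance alone gives about 1 in 20. Cdkn1b was at 22.12 FPKM in control 2 and at 17.01 to 17.7 FPKM in the other 3 controls.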

How the results depend on the processing

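Of the 16 called members, 9 (Ccna2, Ccnb1, Ccnb2, Ccne1, Ccnf, Cdk1, Cdk14, Cdkn1c and Cdkn2b) were called in each of the 16 alternative fits that tested them. The other 7 lost the call in some, as given beside each. The filter at a mean of 1 FPKM did not test Cdkn2a, Cdkn2b and Cdk15. Without a fold change threshold the counts of calls were 6447 for all genes, 28 for members, 7 for transcriptional members, 4 for other members and 111 for pathway and marker genes, and with a log2 fold change above 1 they were 795, 6 (all 6 of them cell-cycle members), 0, 0 and 34. Main counts were 2981, 16, 13 (cell-cycle), 2, 1 and 71. With median-of-ratios scaling 10 members and 0 transcriptional members were called, after quantile normalization 9 members, 8 cell-cycle and 0 transcriptional members, and without mitochondrially encoded genes 1 transcriptional member. The split of calls moved with scaling, from 90.8% higher to 67.5, 58.9 and 80.5% in these 3 settings. Leaving out 1 library gave 2722 to 3078 calls over all genes, 14 to 17 members, 11 to 14 cell-cycle members and 1 to 2 transcriptional members (1 without control 4). Cdkn1a turned to -0.047 with median-of-ratios scaling and -0.00052 after quantile normalization, and ranged from -0.089 (without control 1) to 0.38 (without control 4) on leaving out 1 library, with -0.0265 without ANG II 4. Cdk16 turned to -0.11, -0.061 and -0.0096 (median of ratios, quantile, without mitochondrially encoded genes). The Cdkn1a share turned to -0.789 percentage points from recovered fragments (1.74 from FPKM). These 2 genes were called in none of the 16 fits, and the cause was not tested.

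Libraries with the same number did not deviate together (correlations of -0.016, 0.062, -0.032 and -0.009). Over all pairings of a control with an ANG II library, correlations ran from -0.088 to 0.094. No pairing by number was seen, which does not exclude one. With the replicate block, 2968 genes and 16 members were called, 13 of them cell-cycle members. Members with few fragments (Cdkn2a, Cdk15, Ccno and Ccna1) are limited by depth.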
